A study of Caenorhabditis elegans with 27 samples.

Results

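Cytosolic ribosomal protein genes were the genes whose symbol in the count table begins with rpl-, rps- or rla-, a rule that uses names and no measured value. The rule found 79 of 46738 genes, of which 45 belong to the large subunit, 31 to the small subunit and 3 to the stalk of the large subunit. All 79 were among the 16435 genes that passed a filter on low counts. The 27 libraries hold poly(A) RNA of whole Caenorhabditis elegans of the N2 wild-type strain. The series design adds that they carried the hsp-6::GFP reporter. Animals ate HT115 Escherichia coli from the egg on, at 20 °C, and were taken on day 2, at the L4 or young adult stage.

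Each of 9 feeding groups had 3 libraries. The bacteria carried the cbp-1 clone, the atfs-1 clone or the empty vector (ev), and the labels give no share for these single diets. In the cco-1 and mrps-5 groups 50% of the bacteria carried that clone and 50% the empty vector. The cco-1+cbp-1 and mrps-5+cbp-1 groups held 50% of the mitochondrial clone, 25% of the cbp-1 clone and 25% empty vector, and the cco-1+atfs-1 and mrps-5+atfs-1 groups held 50% of each clone. The cbp-1 product is the worm relative of mammalian CBP and p300, which acetylate histones. The atfs-1 product is a transcription factor that answers mitochondrial stress. The cco-1 product belongs to cytochrome c oxidase, and the mrps-5 product to the mitochondrial ribosome. Feeding RNAi reaches the tissues of a worm unevenly and is known to be weak in neurons, so a whole-worm library averages over cells that received different doses.

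Ribosomal proteins join ribosomal RNA in the nucleolus to form a small subunit, which reads the mRNA, and a large subunit, which joins the amino acids. Cells need nearly equal amounts of these proteins, and in growing animals their mRNAs are among the most abundant of all. The P-stalk proteins encoded by rla-0, rla-1 and rla-2 recruit the elongation factors. In worms and other animals the supply of these mRNAs and their translation follow growth signals such as the TORC1 kinase, and lowered translation is known to lengthen worm life.

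Each library held 20672073 to 30938572 gene counts (median 27527028), of which 1334126 to 2954155 lay in the 79 genes. Libraries also differed along a line that no label names. An axis over 421 genes outside the list, taken from the difference between atfs-1 replicate 1 and its own replicates, placed that library with the ev and cbp-1 libraries in set A and the other 20 libraries in set B. The comparison of cbp-1 with ev lies within set A, and every comparison among the cco-1 and mrps-5 groups and their mixtures lies within set B. Comparisons of cco-1, mrps-5 or atfs-1 with ev cross the sets and are given last. Reads of the cbp-1 gene were fewer wherever its clone was fed, with 208 CPM (counts scaled to library size) in cbp-1 worms against 269 in ev worms, 276 in cco-1+cbp-1 against 325 in cco-1, and 275 in mrps-5+cbp-1 against 321 in mrps-5 (means of 3). Reads of atfs-1 were no fewer where that clone is on the label (90.5 CPM in atfs-1 and 77.7 in ev worms), so those groups are called by their labels. Levels are CPM scaled by trimmed mean of M values (TMM) factors, and changes are log2 fold changes with standard errors from edgeR's quasi-likelihood test. Called genes had a Benjamini-Hochberg adjusted p below 0.05, adjusted over all genes tested. No label says that the libraries of a group came from separate cultures, so the p-values measure only their spread, which may be technical.

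Per kilobase of coding sequence, most of the list lay within a narrow band. The median level over the 79 genes was 2150 CPM per kilobase in cbp-1 worms and 2870 in ev worms. The interquartile range was 0.38 log2 units in cbp-1 worms and 0.36 in ev worms. The highest mean levels over the 9 groups were those of rpl-38 (3255 CPM per kilobase), rpl-10 (3214), rps-25 (3167) and rps-23 (3159). These means pool both library sets described below, and the order differed between groups. In ev worms rpl-10 (3830), rps-23 (3819) and rps-29 (3778) were highest, whereas in mrps-5 worms rps-25 (3547) and rpl-38 (3436) were highest and rps-29 was at 1591. The lowest were those of rpl-42 (2.77), rpl-24.2 (111), rpl-37 (148) and rpl-25.1 (392). Across the 79 genes the level per kilobase in cbp-1 worms and in ev worms had a Pearson correlation of 0.998 and a Spearman correlation of 0.985, as a description over genes.

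Nearly the whole list was lower with the cbp-1 clone. Of the 79 genes, 76 fell and 0 rose in cbp-1 worms against ev worms, where 28.5% of all genes tested were called lower and 30.2% higher. The median change of the list was -0.42, which is a 25.5% lower level, beside a median of 0.02 over all genes. In bulk RNA, fewer cells of a type and less RNA per cell cannot be told apart. Of the large subunit 43 of 45 genes fell (median -0.43), of the small subunit 30 of 31 (median -0.42) and of the stalk 3 of 3 (median -0.43). The genes that did not pass were rps-29 (-0.38, adjusted p = 0.116), rpl-37 (-0.54, adjusted p = 0.338) and rpl-42 (0.29, adjusted p = 0.173). In 78 of the 79 genes all 3 cbp-1 libraries lay below all 3 ev libraries, against 32% of all genes. In rpl-42 they lay above, as in 34% of all genes.

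The smallest adjusted p belonged to rps-18 (WBGene00004487, chromosome IV, 14825679 to 14826477, WBcel235), a protein of the small-subunit head. Its level was 1131, 1110.0 and 1142 CPM in the cbp-1 libraries, against 1537, 1599 and 1628 in the ev libraries. The highest cbp-1 value lay well below the lowest ev value, and the change was -0.49 ± 0.04 (adjusted p = 6.25e-14). The large-subunit gene rpl-27 (WBGene00004441, chromosome I, 1834883 to 1835438) had 903, 905 and 884 CPM in cbp-1 worms and 1252, 1238 and 1276 in ev worms, a change of -0.48 ± 0.04. rpl-3 (WBGene00004414, chromosome III, 3867854 to 3869587), which encodes a protein near the peptidyl transferase centre, had 3081, 3044 and 3159 CPM in cbp-1 worms, against 3963, 4217 and 4178 in ev worms. Neither gene's groups overlapped, and rpl-3 changed by -0.41 ± 0.04. The other 5 genes of smallest adjusted p were rps-7 (-0.46), rpl-7 (-0.41), rps-24 (-0.47), rps-15 (-0.50) and rps-17 (-0.43), with standard errors of 0.04 to 0.05. The stalk genes moved with the rest. rla-0 averaged 2038 ± 56.1 CPM in cbp-1 worms and 2643 ± 132 in ev worms (SD, n = 3 each), a change of -0.38 ± 0.05, while rla-1 changed by -0.43 and rla-2 by -0.45.

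The summed share of the library gives the same direction on another scale. The 79 genes took 8.46%, 8.60% and 8.73% of gene counts in the cbp-1 libraries, against 9.69%, 9.88% and 10.4% in the ev libraries. The groups did not overlap, and their means were 8.60% ± 0.13 in cbp-1 and 9.97% ± 0.34 in ev worms (SD, n = 3 each). The log2 ratio of these shares was -0.21, and after TMM scaling it was -0.42. TMM factors were 1.06 to 1.08 in the cbp-1 libraries and 0.918 to 0.939 in the ev libraries, so the scale sets part of the size. With library totals alone the median change of the list was -0.22 with 54 genes called lower (16.4% of all genes), while the median of all genes moved by 0.21. Over all genes that scaling called 8833 higher and 2689 lower, beside 4969 higher and 4677 lower with TMM. Reads without a unique alignment, which no gene receives, were 7.93% to 7.98% of all reads in cbp-1 worms and 14.7% to 14.9% in ev worms, and their part in the result was not tested.

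**Figure D1:**
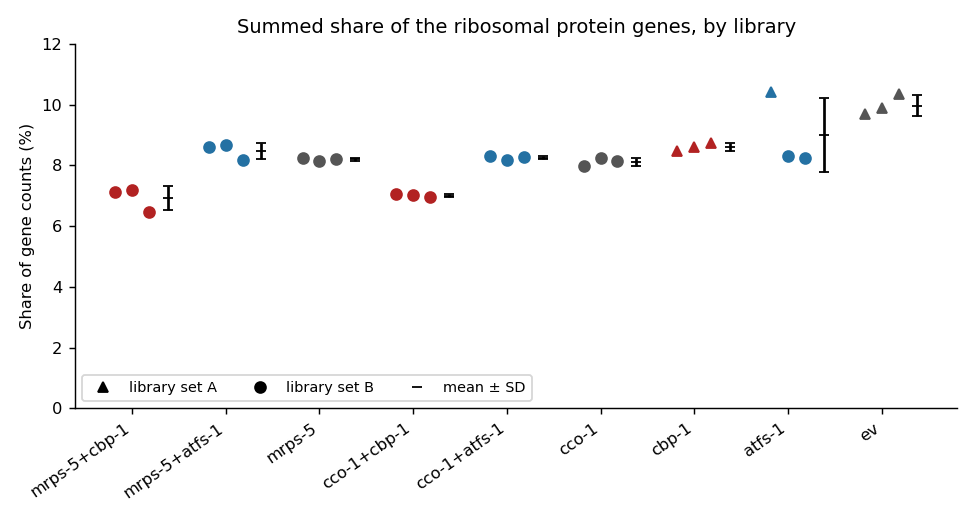
Share of all gene counts (%, vertical axis) taken by the 79 ribosomal protein genes in each of the 27 libraries, by feeding group, with the mean ± SD of 3 libraries beside the points. Triangles are set A and circles set B. The cbp-1 libraries sit between 8.46% and 8.73%, below the ev libraries at 9.69% to 10.4%, and the mixtures with cbp-1 are the lowest groups of set B.

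The same fall was present when cbp-1 was combined with either mitochondrial clone. In cco-1+cbp-1 against cco-1 worms 70 of the 79 genes fell and 0 rose, where 25.3% of all genes were called lower and 21.9% higher, with a median change of -0.33 beside -0.02 over all genes. In mrps-5+cbp-1 against mrps-5 worms 73 fell and 0 rose, where 23.4% of all genes were called lower and 19.4% higher, with a median of -0.41 beside -0.01. All 3 cco-1+cbp-1 libraries lay below all 3 cco-1 libraries in 78 genes (31% of all genes), and all 3 mrps-5+cbp-1 libraries lay below all 3 mrps-5 libraries in 79 genes (28.1% of all genes). With library totals alone the counts called lower were 46 and 58 (17.1% and 15.5% of all genes) and the medians -0.21 and -0.25, while the median of all genes moved by 0.12 and 0.16.

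rps-18 had 996, 1002 and 983 CPM in cco-1+cbp-1 worms, against 1259, 1322 and 1278 in cco-1 worms. In the other arm it had 1067, 1081 and 1032 CPM in mrps-5+cbp-1 worms and 1365, 1377 and 1393 in mrps-5 worms. The groups were separate in both arms, with changes of -0.37 ± 0.04 and -0.38 ± 0.04. In the cco-1 arm the smallest adjusted p values were those of rpl-27 (-0.40 ± 0.04, adjusted p = 4.56e-11), rpl-3 (-0.37), rpl-6 (-0.43), rps-18 and rps-8 (-0.38). In the mrps-5 arm they were those of rps-7 (-0.47 ± 0.04, adjusted p = 3.53e-13), rpl-7 (-0.42), rpl-27 (-0.45), rps-24 (-0.47) and rpl-3 (-0.41). The list took 7.06%, 7.02% and 6.94% of gene counts in cco-1+cbp-1 worms, against 7.97%, 8.25% and 8.13% in cco-1 worms. It took 7.11%, 7.20% and 6.45% in mrps-5+cbp-1 worms, against 8.25%, 8.15% and 8.20% in mrps-5 worms. Neither arm's groups overlapped, and the log2 ratios of the mean shares were -0.21 and -0.24. mrps-5+cbp-1 replicate 3 had the lowest share of the 27 libraries and also the lowest score on the library-set axis (-0.345). Replicates 1 and 2 of that group scored -0.212 and -0.204, and the part of this axis in the low share was not tested. Without replicate 3 the count of genes called lower was 62 and the median change -0.33.

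Called lower in all 3 comparisons with cbp-1 at once were 69 of the 79 genes (87.3%), against 15.7% of all genes. The other 10 were rpl-37, rps-27, rpl-2, rpl-28, rps-5, rps-22, rps-29, rpl-43, rpl-24.2 and rpl-42. Of these, rpl-42 had the lowest level of the list, with 1.64, 1.69 and 1.48 CPM in the cbp-1 libraries and 1.33, 1.36 and 1.26 in the ev libraries. rps-29, rps-27, rpl-28 and rps-5 had the 4 highest differences between library sets and rpl-37 the lowest, as described below, and the shared estimate of their spread included the atfs-1 group, whose libraries lie in both sets. In fits with only the groups compared, 78, 78 and 75 genes were called lower in cbp-1, cco-1+cbp-1 and mrps-5+cbp-1 worms, where 31.6%, 27.6% and 24.6% of all genes were. The 3 comparisons share no library. Over 77 genes, without rpl-37 and rpl-42, their changes had Pearson correlations of 0.77 (cbp-1 with cco-1+cbp-1), 0.79 (cbp-1 with mrps-5+cbp-1) and 0.81 (between the mixtures), and Spearman correlations of 0.56, 0.56 and 0.63, as a description across genes. The standard deviation between those 77 changes was 0.07 to 0.08, below their root mean square standard error of 0.09. That error came from the fit over all groups, whose spread included the atfs-1 group, so it does not settle whether the 77 genes differed among themselves.

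**Figure D2:**
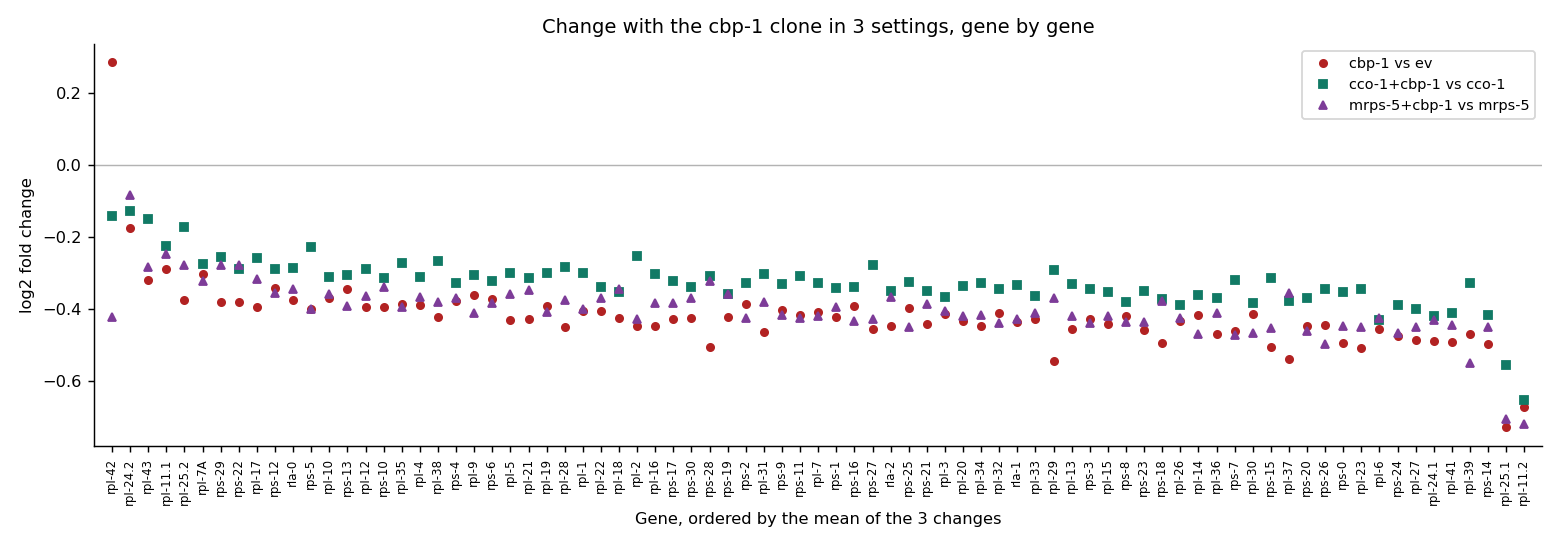
Log2 fold change (vertical axis) of each of the 79 genes with the cbp-1 clone, against ev (circles), against cco-1 (squares) and against mrps-5 (triangles), ordered by the mean of the 3 changes. Most genes lie between about -0.5 and -0.2, with rpl-11.2 and rpl-25.1 lowest on the right and rpl-42, rpl-24.2 and rpl-43 highest on the left.

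Whether the change with the cbp-1 clone differed beside a mitochondrial clone was tested with interaction terms. The mixtures held 25% of the cbp-1 clone, and the labels give no share for the cbp-1 diet. Clone share and mitochondrial clone therefore cannot be told apart in these terms. The median interaction over the list was 0.09 for cco-1 and 0.03 for mrps-5, and it was positive in 78 and 55 of the 79 genes. The difference passed for 1 gene in each case. rps-15, a protein of the small-subunit head, had 793, 811 and 788 CPM in cco-1+cbp-1 worms, against 959, 1026 and 987 in cco-1 worms. It had 811, 828 and 838 CPM in cbp-1 worms, against 1163, 1194 and 1157 in ev worms. Its interaction with cco-1 was 0.19 ± 0.07 (adjusted p = 0.0292), where 9.63% of all genes were called higher. rpl-42 had an interaction with mrps-5 of -0.71 ± 0.26 (adjusted p = 0.0496), where 15.5% of all genes were called lower. The number of genes with an interaction depended on the estimate of spread. With only the groups compared, 34 genes had a positive interaction with cco-1 and 3 with mrps-5, where 16.5% and 17.7% of all genes were called higher. The cbp-1 effect was not called different between the arms for any of the 79 genes by edgeR or by DESeq2 (2 at an unadjusted p below 0.05), where edgeR called 5.49% of all genes, with a median difference of 0.08 between the cco-1 arm and the mrps-5 arm.

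Averaged over the 3 comparisons, rpl-11.2 (-0.68) and rpl-25.1 (-0.66) had the largest falls of the 79 genes, and the means of rpl-42 (-0.09) and rpl-24.2 (-0.13) lay closest to 0. Except for rpl-42, these genes belong to pairs that share a symbol number. rpl-11.1 and rpl-11.2 encode versions of the large-subunit protein L11, which holds the 5S RNA particle with rpl-5. rpl-25.1 and rpl-25.2, which RefSeq names rpl-23A.1 and rpl-23A.2, encode versions of L23a at the exit of the protein tunnel. rpl-24.1 encodes the ribosomal protein L24, and rpl-24.2 is related to yeast Rlp24, an assembly factor that holds the place of L24 on the immature subunit. rpl-11.2 (WBGene00004423, chromosome X, 2241738 to 2242618) and rpl-25.1 (WBGene00004438, chromosome X, 4715178 to 4715796) are the only genes of the list on the X chromosome.

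rpl-11.2 had 341, 362 and 389 CPM in cbp-1 worms, against 529, 577 and 632 in ev worms, a change of -0.67 ± 0.11 (adjusted p = 3.06e-05). Its copy rpl-11.1 (WBGene00004422, chromosome V, 3585312 to 3586064) had 1104, 1112 and 1116 CPM in cbp-1 worms, against 1325, 1340.5 and 1405 in ev worms, a change of -0.29 ± 0.04. Both copies fell, and rpl-11.2 fell more. With the mitochondrial clones rpl-11.2 had 263, 254 and 242 CPM in cco-1+cbp-1 worms against 379, 398 and 414 in cco-1 worms, and 258, 259 and 215 in mrps-5+cbp-1 worms against 406, 402 and 396 in mrps-5 worms. The changes were -0.65 and -0.72, beside -0.22 and -0.25 for rpl-11.1. The log2 ratio of rpl-11.2 to rpl-11.1 differed by -0.43 between groups with and without the cbp-1 clone, averaged over the 3 comparisons, and was lower in each (-0.38, -0.43 and -0.48).

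rpl-25.1 had 154, 155 and 174 CPM in cbp-1 worms, against 257, 261 and 283 in ev worms. rpl-25.2 (WBGene00004439, chromosome I, 8329062 to 8329647) had 641, 624 and 635 CPM in cbp-1 worms, against 834, 812 and 818 in ev worms. The changes were -0.73 ± 0.14 and -0.37 ± 0.05, and the ratio of rpl-25.1 to rpl-25.2 differed by -0.39 over the 3 comparisons. rpl-24.2 (WBGene00004437, chromosome I, 9669415 to 9670098) had 60.2, 57.1 and 61.3 CPM in cbp-1 worms, against 64.3, 69.2 and 68.3 in ev worms, a change of -0.18 ± 0.06 (adjusted p = 0.0147). Without ev replicate 2 or cbp-1 replicate 2 this call was lost (adjusted p = 0.0603 and 0.0773), and with library totals alone its change was 0.03. rpl-24.1 (WBGene00004436, chromosome I, 4585115 to 4586176) changed by -0.49 ± 0.06, and the ratio of rpl-24.2 to rpl-24.1 differed by 0.32. Each of the 3 ratio differences had the smallest p that an exact permutation of libraries within the 3 comparisons can give (two-sided p = 0.00025 over 8000 labellings, 0.00025 after Benjamini-Hochberg adjustment over the 3 pairs). Reads that copies share cannot be assigned to either, and the share of reads without a unique alignment differed between groups as given above, so the size of these ratios is uncertain. In set B that share was 7.21% to 7.26% in cco-1+cbp-1 and 8.00% to 8.30% in cco-1 worms, and 8.68% to 8.81% in mrps-5+cbp-1 and 12.4% to 12.97% in mrps-5 worms.

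The X chromosome as a whole moved in the same direction by less. Over the 2267 X-linked genes tested, the median change in cbp-1 against ev worms was -0.14 and 41.4% were called lower, beside medians of 0.02 to 0.06 and 25.2% to 28.5% over the autosomes. In the cco-1 arm the X-linked median was -0.08 (33.7% lower) and in the mrps-5 arm -0.14 (35.6% lower), beside autosomal ranges of -0.03 to 0.00 and -0.01 to 0.01. With 2 X-linked genes in the list, position and copy cannot be told apart.

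**Figure D3:**
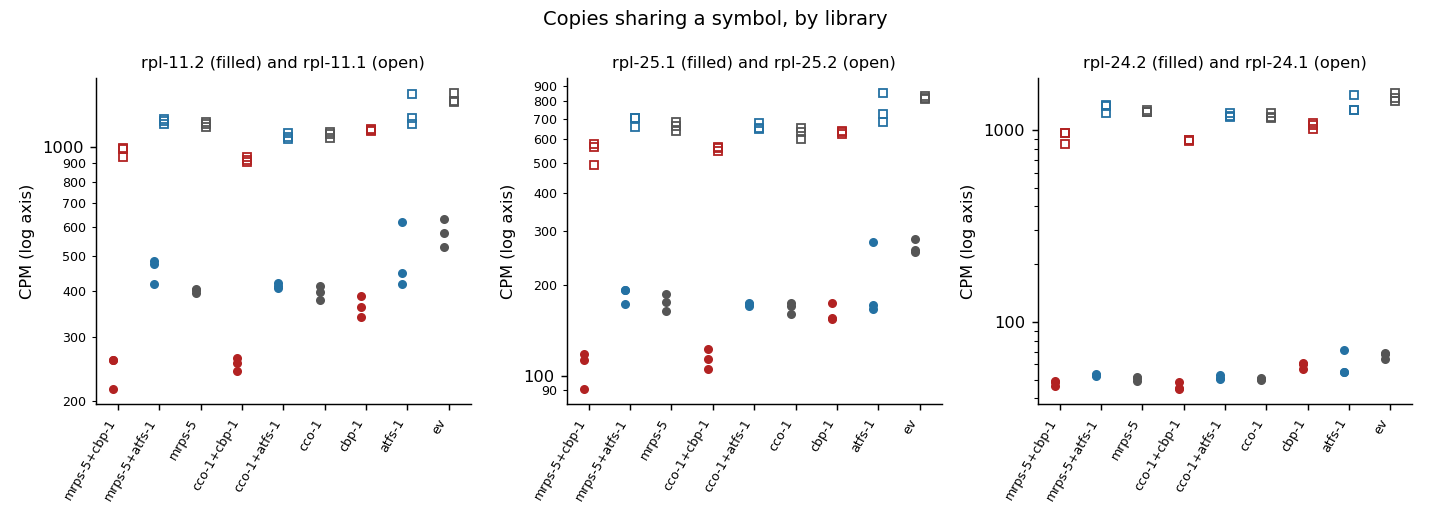
Level (CPM, log axis) of each copy in every library, by feeding group, for rpl-11.2 and rpl-11.1, rpl-25.1 and rpl-25.2, and rpl-24.2 and rpl-24.1. In each group with the cbp-1 clone (red) the filled rpl-11.2 and rpl-25.1 points drop further from their references than the open points, while the filled rpl-24.2 points drop less than the open rpl-24.1 points.

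Ribosomal proteins with symbols outside the rule moved with the list. rack-1, which encodes a scaffold protein on the small subunit, changed by -0.45 ± 0.09 in cbp-1 worms, -0.37 in cco-1+cbp-1 worms and -0.43 in mrps-5+cbp-1 worms. ubl-1 and ubq-2, which encode a ubiquitin-like or ubiquitin domain fused to a ribosomal protein, also fell in all 3 comparisons (-0.39 and -0.39 in cbp-1 worms). 5 genes with a ribosomal symbol in RefSeq and another name in the count table were Y37E3.8 (rpl-27A), W01D2.1 (rpl-37.1), F54D7.6 (rpl-41.1), F54D7.7 (rpl-41.2) and ubl-1 (rps-27A). They changed by -0.38 to -0.41 in cbp-1 worms, all called lower, and F54D7.6 alone missed the threshold in the mrps-5 arm (-0.10, adjusted p = 0.335).

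Lists of translation and ribosome assembly genes were counted in the same comparisons. Of all genes, 28.5%, 25.3% and 23.4% were called lower there and 30.2%, 21.9% and 19.4% higher. The lists were read with TMM scaling alone. With library totals alone the median of all genes moved up in all 3 comparisons, as given above, so the smaller medians depend on the scale. Of 8 elongation factor genes 7 fell and 1 rose in each of the 3 comparisons (medians -0.27, -0.23 and -0.26). The exception was eef-1A.2, a copy of elongation factor 1A, which rose by 0.96 in cbp-1 worms, 0.67 in cco-1+cbp-1 worms and 0.77 in mrps-5+cbp-1 worms. Its copy eef-1A.1 fell (-0.19, -0.13 and -0.17). Of 28 initiation factor genes 19, 16 and 18 fell (1, 1 and 0 rose), with medians of -0.14, -0.13 and -0.13. Both subunits of the nascent polypeptide-associated complex, icd-1 and icd-2, fell (-0.33 and -0.32 in cbp-1 worms). Of 32 ribosome assembly genes 25, 17 and 16 fell and 0 rose in each (medians -0.21, -0.13 and -0.12). Among them were nol-5 (-0.39 in cbp-1 worms), nol-1 (-0.44), and fib-1, the worm fibrillarin (-0.32). Of 6 RNA polymerase I genes 6, 4 and 4 fell, with rpoa-2 at -0.50 and rpoa-1 at -0.41 in cbp-1 worms.

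Genes of the TORC1 pathway did not move as a group, with 4 of 13 lower and 2 higher in cbp-1 worms, 3 lower and 2 higher in cco-1+cbp-1 worms, and 2 lower and 4 higher in mrps-5+cbp-1 worms. Over all genes 28.5%, 25.3% and 23.4% were called lower and 30.2%, 21.9% and 19.4% higher. The TORC1 counts called lower were thus near those shares or below them. Counts called higher were below their shares in cbp-1 and cco-1+cbp-1 worms and above in mrps-5+cbp-1 worms. The genes named next are among those that fell, and those that rose are not named here. sesn-1, the worm sestrin, fell in each (-1.34, -0.43 and -0.91). larp-1, whose mammalian homolog binds the mRNAs of ribosomal proteins, also fell (-0.25, -0.26 and -0.17). The 66 genes of the mitochondrial ribosome had 48, 48 and 50 members lower and 0, 1 and 1 higher, with medians of -0.21, -0.22 and -0.19, which is a smaller fall than that of the cytosolic genes. The difference between these lists was not tested, and the mitochondrial ribosome list was read with TMM scaling alone.

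Markers of several tissues changed with the cbp-1 clone, and their part in the fall of the ribosomal protein genes was not tested. No marker was at 0 in any group. All marker counts stand beside 28.5%, 25.3% and 23.4% of all genes called lower and 30.2%, 21.9% and 19.4% higher in the 3 comparisons. Of 12 germline markers 7, 7 and 5 were lower and 1 was higher in each of cbp-1, cco-1+cbp-1 and mrps-5+cbp-1 worms. Their summed level was 4741 to 4905 CPM in cbp-1 and 5452 to 5505 in ev worms. In the arms it was 5181 to 5276 CPM in cco-1+cbp-1 against 5634 to 5870.3 in cco-1 worms, and 5202 to 5457 in mrps-5+cbp-1 against 5727 to 5816 in mrps-5 worms. Germline sums were thus below their reference in all 3 settings after TMM scaling. All marker counts and sums were read with TMM scaling alone. TMM factors were higher in each group with the cbp-1 clone than in its reference (1.06 to 1.08 in cbp-1, 0.918 to 0.939 in ev). Higher factors lower the scaled sums, so the size and direction of marker differences may depend on the scale. Of 11 muscle markers 7, 6 and 7 were lower and 2, 1 and 0 higher. Their sums were 7784 to 8204 CPM in cbp-1 against 9233 to 9296 in ev worms, 7744 to 7899.6 in cco-1+cbp-1 against 8666 to 9187 in cco-1 worms, and 7534 to 8073 in mrps-5+cbp-1 against 9104 to 9267 in mrps-5 worms. Of 9 hypodermis markers 1, 2 and 5 were lower and 3, 1 and 0 higher, so the calls in cbp-1 worms did not follow their sum. Hypodermis sums were also below their reference in each setting, at 1331 to 1411 CPM in cbp-1 against 1848 to 1939 in ev worms, 1395 to 1429.7 in cco-1+cbp-1 against 1739 to 1788 in cco-1 worms, and 1247 to 1471 in mrps-5+cbp-1 against 1807 to 1859 in mrps-5 worms.

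The sums of the other markers did not share one direction across tissues and settings. Of 11 intestine markers 7, 8 and 8 were lower and 2, 2 and 3 higher. The intestine sum was 6229 to 6399.6 CPM in cbp-1 and 5004 to 5364 in ev worms, but 3438 to 3612 in cco-1+cbp-1 against 4297 to 4720.3 in cco-1 worms, and 3926 to 4217 in mrps-5+cbp-1 against 4139 to 4249.5 in mrps-5 worms. Of 14 sperm markers 9, 1 and 0 were higher and 0, 8 and 2 lower. The sperm sum was 331 to 339 CPM in cbp-1 and 259 to 265 in ev worms, 233 to 245 in cco-1+cbp-1 against 262 to 283 in cco-1 worms, and 243 to 267 in mrps-5+cbp-1 against 259 to 270.2 in mrps-5 worms. Of 10 neuron markers 5, 5 and 4 were higher and 1 was lower in each, and their sum was above its reference throughout. It was 496 to 506 CPM in cbp-1 against 385 to 401 in ev worms, 453 to 471 in cco-1+cbp-1 against 394 to 402 in cco-1 worms, and 411 to 444 in mrps-5+cbp-1 against 380.4 to 396 in mrps-5 worms. Of 15 oocyte and early embryo markers 7, 3 and 2 were lower and 2, 0 and 4 higher. Their sum was 10623 to 11053 CPM in cbp-1 against 12477 to 12854 in ev worms, 10897 to 11140.4 in cco-1+cbp-1 against 11524 to 12033 in cco-1 worms, and 10739 to 11665 in mrps-5+cbp-1 against 11409 to 11623 in mrps-5 worms, where the groups overlapped.

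No fall of a ribosomal protein gene was called in the mixtures labelled atfs-1. In cco-1+atfs-1 against cco-1 worms 0 of the 79 genes were called by edgeR, 0 reached an unadjusted p below 0.05 and 0 were called by DESeq2. Over all genes edgeR called 8.97% higher and 11.5% lower. In mrps-5+atfs-1 against mrps-5 worms edgeR called 0 (9 at an unadjusted p below 0.05, among them rpl-42 at -0.44), where it called 6.85% of all genes higher and 9.98% lower. DESeq2 called 3 higher, and its share over all genes is not given here. The medians were 0.04 and 0.07, and the fitted change was positive in 75 and 78 of the 79 genes. All 3 mixture libraries lay above all 3 of their mitochondrial clone in 13 genes of the cco-1 arm (17.2% of all genes) and 20 of the mrps-5 arm (17.3% of all genes). The arms' atfs-1 changes were not called different in any of the 79 genes by edgeR or DESeq2 (0 at an unadjusted p below 0.05), where edgeR called 3.49% of all genes. Among the most precise genes, rpl-3 had 3674, 3515 and 3590.4 CPM in cco-1+atfs-1 worms, against 3560.0, 3611 and 3627 in cco-1 worms. These values overlap, and the 95% interval of the change was -0.08 to 0.07. rpl-3 was among the 4 genes with a negative fitted change in this arm. In the other arm rpl-3 had 4048, 4008 and 3879 CPM in mrps-5+atfs-1 worms and 3873, 3852 and 3938 in mrps-5 worms, with an interval of -0.04 to 0.11. Both intervals exclude a change of the size that rpl-3 had with cbp-1, which holds for this precise gene and not for each of the 79. The interval of rpl-37 in cco-1+atfs-1 against cco-1 worms, for example, was -0.66 to 0.49. In fits with only the groups compared, 13 and 15 genes were called higher and 0 lower, where 12.4% and 9.55% of all genes were called higher, and none of these calls was made in the fit over all groups. In the same comparison of cco-1+atfs-1 with cco-1 worms, 48 of the 66 mitochondrial ribosome genes were called lower (median -0.19).

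Set directly against each other, the cbp-1 mixtures had the lower levels. In cco-1+cbp-1 against cco-1+atfs-1 worms 74 of the 79 genes were lower (median -0.38), where 22.9% of all genes were called lower and 21.6% higher. In mrps-5+cbp-1 against mrps-5+atfs-1 worms 75 were lower (median -0.47), where 23.4% of all genes were called lower and 21.1% higher. The clone shares differ between these mixtures, with 25% cbp-1 and 50% atfs-1.

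**Figure D4:**
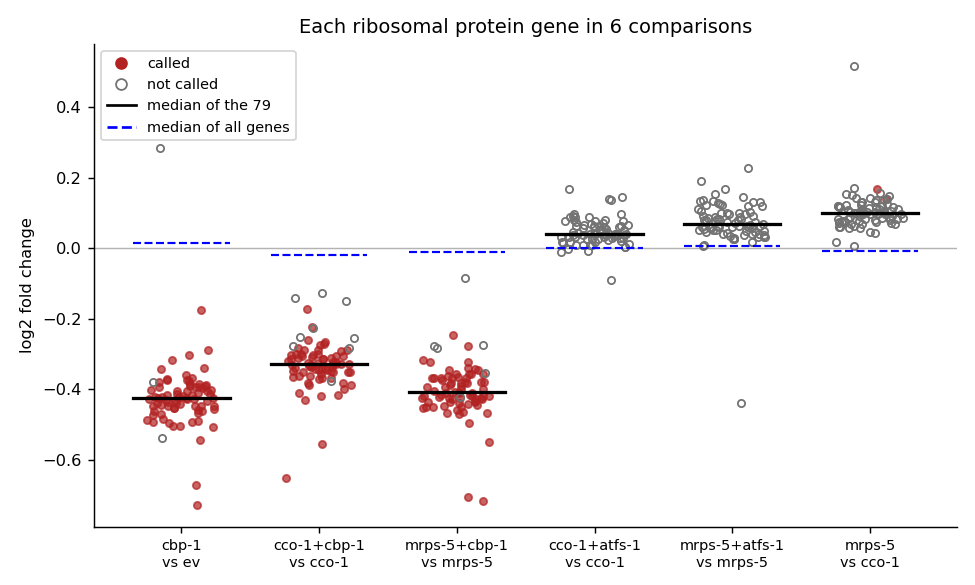
Log2 fold change of each of the 79 genes (points, filled where called) in 6 comparisons within a library set, with the median of the list (solid line) and of all genes tested (dashed line). The 3 comparisons with the cbp-1 clone have list medians of -0.42, -0.33 and -0.41, those with the atfs-1 clone 0.04 and 0.07, and mrps-5 against cco-1 has 0.10.

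Between the mitochondrial clones few genes of the list were called. All 79 genes had a higher fitted level in mrps-5 than in cco-1 worms, with a median of 0.10 beside -0.01 over all genes, and 2 were called higher, where 6.74% of all genes were called higher and 5.02% lower. rps-7 had 1737, 1764 and 1739 CPM in mrps-5 worms, against 1527, 1543 and 1594 in cco-1 worms, a change of 0.17 ± 0.04 (adjusted p = 0.00207). rps-3, a protein at the mRNA entry of the small subunit, had 1890.0, 1861 and 1883 CPM in mrps-5 worms, against 1661, 1791 and 1663 in cco-1 worms. Neither gene's groups overlapped. rps-3 changed by 0.14 ± 0.05 (adjusted p = 0.0342). In 56 of the 79 genes all 3 mrps-5 libraries lay above all 3 cco-1 libraries, against 14.7% of all genes. The size depended on the scale. The share of gene counts was 8.20% ± 0.05 in mrps-5 and 8.12% ± 0.14 in cco-1 worms (SD, n = 3 each), with overlapping libraries, and with library totals alone the median was 0.01 and 0 genes were called. With only the groups compared, 55 genes were called higher, where 9.84% of all genes were.

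Against the empty vector the mitochondrial clones cross the library sets, and the list moved strongly between the sets. Within the atfs-1 group, replicate 1 (set A) was higher than replicates 2 and 3 (set B) in 76 of the 79 genes, with a median difference of 0.38 log2 CPM beside -0.01 over all genes. The gene rps-29 had 644, 283 and 273 CPM in these 3 libraries, a difference of 1.21. rpl-28 (0.83), rps-27 (0.78) and rps-5 (0.76) followed. At the other end were rpl-37 (-2.32), rps-17 (-0.17), rpl-7 (-0.02) and rps-25 (0.00). rpl-37 (WBGene00004451, chromosome III, 3528642 to 3528917), which RefSeq names rpl-37.2, had 11.1, 58.3 and 56.2 CPM in the same libraries, so it went against the rest of the list. It lies across from pitp-1 on the other strand, rps-29 (WBGene00004498, chromosome III, 794300 to 795031) overlaps 2 annotated small RNA genes on its own strand, and no source used here gives the strand setting of the counting, so reads of overlapping genes may be shared. In all, 27 of the 79 genes overlap another annotated gene. Coding length was short in the list (median 447 bases, against 1068 over 15509 tested coding genes). Across those 15509 genes the set difference and coding length had a Spearman correlation of -0.40, but within the list it was -0.03, as a description.

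The comparisons with ev followed this set difference gene by gene. In cco-1 against ev worms 71 genes were called lower and 1 higher (median -0.44), where 22.2% of all genes were called lower and 23.1% higher. In mrps-5 against ev worms 66 were called lower and 2 higher (median -0.35), where 18.9% of all genes were called lower and 19% higher. The changes and the set difference, which share no library, had Pearson correlations across the 78 genes other than rpl-37 of -0.97 for cco-1 and -0.97 for mrps-5. With a term for the library set in the fit, 0 genes were called in either comparison and the medians were -0.07 and 0.02, where 9.48% of all genes were called lower and 6.89% higher for cco-1, and 5.45% lower and 4.3% higher for mrps-5. rps-29 changed by -1.37 ± 0.21 and rpl-37 by 2.34 ± 0.36 in cco-1 against ev worms. rps-17 had 799.5, 844 and 779 CPM in cco-1 worms, against 764, 778 and 737 in ev worms, and changed by 0.09 ± 0.04 (adjusted p = 0.066). The term rests on the atfs-1 group alone, so apart from what those 3 libraries show, the library set and the clone cannot be told apart.

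The libraries labelled atfs-1 lie in both sets themselves. Against ev 1 gene was called lower (rps-29) and 2 higher (rpl-37 and rps-17), where 5.24% of all genes were called lower and 5.54% higher. Without atfs-1 replicate 1 the counts were 63 lower and 2 higher (median -0.34), where 14.4% of all genes were called lower and 15% higher. Without atfs-1 replicate 2, atfs-1 replicate 3 or ev replicate 3 they were 0 lower and 1 higher in each case, where 0.397%, 0.512% and 1.37% of all genes were called higher.

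**Figure D5:**
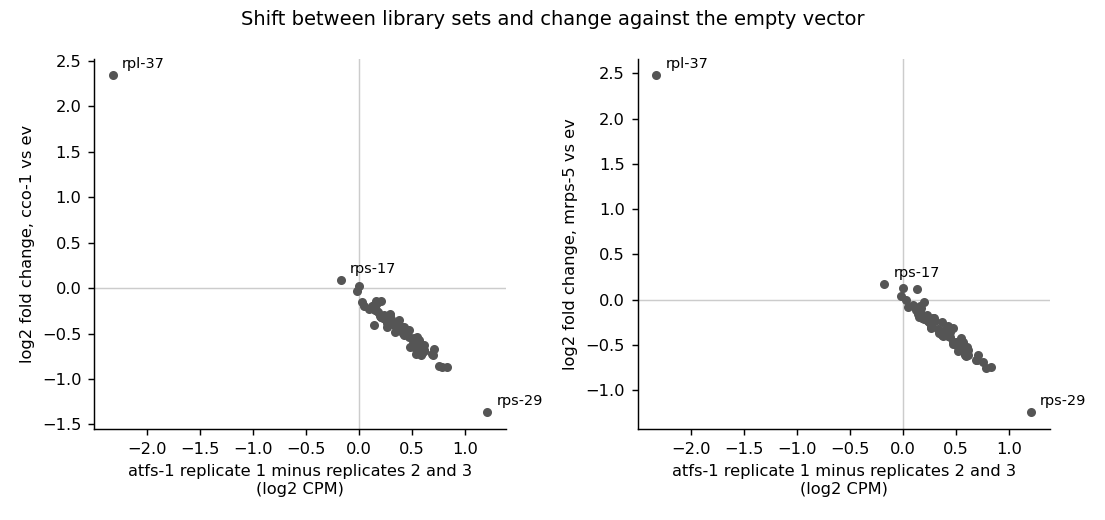
Log2 fold change of each of the 79 genes in cco-1 against ev (left) and mrps-5 against ev (right), vertical axes, plotted on the difference between atfs-1 replicate 1 and replicates 2 and 3 (log2 CPM, horizontal axes). The points fall on a line from rpl-37 at -2.32 to rps-29 at 1.21, with Pearson correlations of -0.97 in both panels without rpl-37.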

How the data were processed

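Poly(A) RNA libraries were sequenced on the BGISeq500 platform, per the labels' protocols. The deposited table holds whole-number gene counts. Per the submitters' processing notes, the authors used STAR 2.6.0a and HTSeq 0.10.0 with the WBcel235 build. Rows that name no gene held 8.71% to 17.0% of reads and were left out. Genes were filtered with filterByExpr (minimum count 10), scaled by TMM and fitted over all 27 libraries with edgeR 4.0.16 (R 4.3.3), 1 coefficient per group, with its robust quasi-likelihood F test and Benjamini-Hochberg adjustment over 16435 genes. The standard error is the log2 fold change divided by the square root of F. Intervals are at the 95% level of a normal distribution, so they are somewhat narrower than the F test would give. Members were named by a rule: the stalk genes and copy pairs, those of smallest adjusted p in each comparison, the 4 highest and 4 lowest by level per kilobase, and the 4 at each end of the library-set difference. The exceptions to a count, and rpl-3 in the atfs-1 mixtures, were named after their values were seen. Gene models came from Ensembl and alternative names from RefSeq. The members and gene lists were chosen with earlier results of these data known. The fits were tested on simulated counts. Alternatives were DESeq2 1.42.0, other scalings and filters, a library-set term, a replicate block, only the groups compared, and each library left out. Shared numbers paired libraries only in mrps-5+cbp-1 against mrps-5+atfs-1, where deviations of same-numbered libraries correlated at 0.140, 0.233 and 0.445 over 9514 genes. With the block 75 genes were called there, as without it.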

Additional observations from a re-analysis of the deposited data

Results flagged for a closer look

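rps-15 was noted because its change with the cbp-1 clone differed between the cco-1 mixture and the cbp-1 diet, whose clone shares may differ. The change was -0.31 in cco-1+cbp-1 against cco-1 worms and -0.50 in cbp-1 against ev worms, an interaction of 0.19 (edgeR adjusted p = 0.0292). The adjusted p was 0.212 with library totals alone, 0.0648 with a filter of 5 CPM in 3 libraries and up to 0.0888 with 1 library left out.

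rpl-42 was noted because its change with the cbp-1 clone differed between the mrps-5 mixture and the cbp-1 diet, whose clone shares may differ. The change was -0.42 in mrps-5+cbp-1 against mrps-5 worms and 0.29 in cbp-1 against ev worms, an interaction of -0.71 (edgeR adjusted p = 0.0496, and 0.0329 to 0.165 over the alternatives). Neither change passed on its own, and the gene lay between 0.867 and 1.69 CPM in these 12 libraries.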

How the results depend on the processing

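The fall of the list with the cbp-1 clone kept its direction in every alternative run, in all 3 comparisons. Its size was smallest with library totals alone, a scaling added after seeing the data. The medians were then -0.22 in cbp-1 against ev, -0.21 in cco-1+cbp-1 against cco-1 (46 genes called), -0.25 in mrps-5+cbp-1 against mrps-5, -0.25 in cco-1+cbp-1 against cco-1+atfs-1, -0.29 in mrps-5+cbp-1 against mrps-5+atfs-1 and -0.30 in cco-1 against ev. In the same scaling 0 genes were called in mrps-5 against cco-1 and for the interaction with cco-1, and rpl-24.2 changed by 0.030 in cbp-1 against ev worms. TMM-scaled sums, also added, had log2 ratios of -0.42, -0.33 and -0.40 in the 3 cbp-1 comparisons and 0.10 in mrps-5 against cco-1. The small effects depended most on the fit, and the cause was not tested. Where no share of all genes is given above for a setting, these counts show only how calls depended on the fit. The same holds for the next paragraph, and such counts do not compare the list with all genes. Without the low-count filter the counts called were 4 in cco-1+atfs-1 against cco-1, 17 in mrps-5+atfs-1 against mrps-5, 15 in mrps-5 against cco-1, 51 in atfs-1 against ev, 13 and 2 for the interactions with cco-1 and mrps-5, and 1 for the cbp-1 difference between arms. In fits of only the groups compared they were 13, 15, 55, 0, 34, 3 and 0 in the same order. With a library-set term 9 were called in mrps-5+atfs-1 against mrps-5, 21 in mrps-5 against cco-1, 7 and 2 for the interactions and 1 between arms. The calls against ev were then 0 for cco-1 (median -0.073), 0 for mrps-5 (median 0.022) and 0 for atfs-1 (median 0.054). Without the atfs-1 group, added after seeing the data, the counts were 8 in mrps-5+atfs-1 against mrps-5, 19 in mrps-5 against cco-1, 8 and 2 for the interactions and 1 between arms. DESeq2 called 3 in mrps-5+atfs-1 against mrps-5, 31 in atfs-1 against ev and 5 for the interaction with cco-1. RLE scaling called 4 in mrps-5 against cco-1, and 4 and 0 for the interactions, and upper-quartile scaling 3 and 0. A filter of 5 CPM in 3 libraries called 1 in mrps-5 against cco-1, 19 in atfs-1 against ev, and 0 and 0 for the interactions.

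With the replicate block the counts were 76, 70 and 74 in the 3 cbp-1 comparisons, 5 in atfs-1 against ev, and 2 and 0 for the interactions. Apart from the pair of mixtures given in the methods, deviations of same-numbered libraries correlated at -0.29 to 0.12, so these libraries share only a number. With 1 library left out, 73 to 76, 59 to 68 and 62 to 72 genes were called in the 3 cbp-1 comparisons, 1 to 4 in mrps-5 against cco-1, and 1 to 65 in atfs-1 against ev (median -0.34 to -0.11). The interactions then had 0 to 2 and 0 to 1 calls, and the log2 ratio of shares of mrps-5+cbp-1 to mrps-5 was -0.27 to -0.20. Among 3335 checks of 196 single-gene values, 3117 kept the value on its side of the threshold, 101 lost a call, 116 gained a call and 1 reversed. Among checks of the list's counts, medians and summed levels, 510 stayed within a set limit, 86 moved beyond it and 2 reversed. At the lowest level of the list, rpl-42 averaged 1.60 CPM in cbp-1 and 1.32 CPM in ev worms, and its change had a standard error of 0.17.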
